A study of Mus musculus with 2 samples.

Results

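The cells described here are oligodendrocyte-like cells of GL261 neurospheres: 342 of 4276 kept neurosphere cells, chosen by the measured values of 4 genes. Each cell was scored by its unique molecular identifiers (UMIs) of Enpp2, Mbp, Gpr17 and Pmel over all its UMIs left after removal of mitochondrial and ribosomal genes. The 8% of cells with the highest score were taken. They are compared with 2138 low-score cells, the 50% of kept neurosphere cells with the lowest score. The study asked how the transcriptome of this mouse glioma line, derived in C57BL/6 mice, differs between growth on plastic and growth as spheres. Adherent cells grew in DMEM with 10% FBS, and neurospheres formed over 12 days in that medium with 20 ng/ml EGF, 20 ng/ml FGF and B-27 at 1:50. Each culture was sequenced as 1 droplet library, so no test between cells or cultures was possible, and the intervals given (95%) cover counting error only.

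The neurosphere library held 82832873 UMIs in 4951 called cells and the adherent library 68531063 UMIs in 5764. A median oligodendrocyte-like cell had 9904.5 UMIs and 3812 genes, and a median low-score cell 13111.5 UMIs and 4269.5 genes. After each cell was thinned to 5000 UMIs (10 oligodendrocyte-like and 47 low-score cells were shallower and left out), the median was 2530 and 2447 genes, so at equal depth the oligodendrocyte-like cells did not have fewer genes. Mitochondrial genes took a median of 4.70% of UMIs, against 3.88% in low-score cells. Only 1 of the 342 cells (0.292%) lay above the 95th percentile of UMIs of the library, where 117 low-score cells (5.47%) lay, and such cells were left out in an alternative because no doublet caller was run. The 2 libraries shared 12 barcodes, none of them from an oligodendrocyte-like cell.

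Oligodendrocytes arise from dividing precursors that carry the receptor Pdgfra and the proteoglycan Cspg4. On leaving the cell cycle they pass through a committed stage marked by Gpr17 and Bcas1, and then make the lipids and membrane proteins of myelin. Mbp compacts myelin, Enpp2 (autotaxin) makes lysophosphatidate and is secreted by maturing oligodendrocytes, Gpr17 is an orphan receptor that slows maturation, and Pmel forms the fibrils of pigment granules in melanocytes.

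Genes outside the score describe how far the name fits. They are no independent check, since Bcas1 and Gal3st1 are among the 15 genes with the largest log2 ratios in these cells. The lineage factors Sox10 and Olig2, given below, stayed under 2-fold. Bcas1, a membrane protein of newly formed oligodendrocytes, reached 1340 CPM (UMIs summed over the cells of a group and scaled to 1000000) in oligodendrocyte-like cells and 119 CPM in low-score cells, a ratio of 11.3 (10.8 to 11.7). A Bcas1 UMI was found in 97.7% of the oligodendrocyte-like cells and 64.5% of low-score cells (94.9% and 38.9% after thinning), and the median per cell was 1075 against 78.5 CPM. Gal3st1, which adds sulphate to galactolipids of myelin, was found in 52.6% and 5.99% of cells (34.3% and 2.39% after thinning). The name fits part of the marker set only. Mag, Mog, Ugt8a, Cnp and Myrf were all above the level in low-score cells by more than 2-fold, yet Ermn had no UMI in either group, Mobp had 3 UMIs in oligodendrocyte-like and 0 in low-score cells, and Opalin was lower (7 against 167 UMIs; log2 ratio −1.14, −1.85 to −0.37). The lineage factor Olig1 had a UMI in 98.5% and 98.3% of cells, too close to all cells for these shares to differ, and its median per cell was 1552 against 1157 CPM.

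The score defines a range of cells and no sharp type. It ran from 716 to 14905, scaled like CPM, with a median of 1431, on a median of 16 UMIs of the 4 genes per cell, while 48.6% of kept cells had none of these UMIs. Within 10% of the lowest chosen score lay 34 cells above and 30 below. The 20 chosen cells with the lowest scores carried 845 CPM of Bcas1, and the 20 cells just outside carried 832 CPM, so the border does not mark a step in the level of this gene. Krt8 was 1525 and 152 CPM in these 20 and 20 cells, values that a few cells can set.

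The 4 score genes were not equal in weight. Mbp and Gpr17 both lie on chromosome 18. The oligodendrocyte-like cells held 4722 Mbp, 835 Enpp2, 583 Pmel and 305 Gpr17 UMIs, and low-score cells 31, 9, 9 and 12, a contrast set by the choice of cells. Mbp was found in 98.5% of the oligodendrocyte-like cells (96.4% thinned), Pmel in 57.9% (40.7%), Gpr17 in 42.1% (22.3%) and Enpp2 in 41.2% (30.1%). Enpp2 was the most concentrated, since 16 cells held 50% of its UMIs, against 83 cells for Mbp. When each gene in turn was left out of the score and measured in the cells chosen by the other 3, it was still higher: Enpp2 31.5-fold (26.0 to 38.2), Pmel 20.3-fold (17.3 to 23.8), Gpr17 10.8-fold (8.90 to 13.2) and Mbp 10.8-fold (10.2 to 11.4). Leaving out Mbp changed the cells most, with 200 of the 342 (58.5%) chosen again, against 316, 327 and 324 without Enpp2, Gpr17 and Pmel. When the score was taken on a random 50% of UMIs, 292 of the cells were chosen again, and on the other UMIs Mbp was 52.0-fold (46.8 to 57.8), Enpp2 47.1-fold (37.2 to 60.4), Pmel 20.1-fold (16.2 to 25.1) and Gpr17 12.2-fold (9.37 to 16.0) higher. These UMIs took no part in the choice of cells. The 4 score genes, however, were chosen with earlier results of this library known. Neither the left-out genes nor the divided UMIs are therefore independent support for grouping these genes.

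Across 11333 genes with at least 100 UMIs in both groups together, 621 were more than 2-fold higher (5.48%) and 378 more than 2-fold lower (3.34%) in oligodendrocyte-like cells, on the scale of CPM + 1 used for log2 ratios unless stated. The interval lay wholly beyond 2-fold for 340 and 152 of them. The adherent library scored the same way, where the score genes differed less between the groups, gave 1.78% higher and 0.629% lower. The median log2 ratio over all genes was 0.06. Of the neurosphere genes beyond 2-fold, 62.2% were higher, and 48.4% were higher after TMM scaling, which moved the median of all genes to −0.07. The balance of higher and lower genes therefore depends on the scaling. List medians below are to be read against the all-gene median, and list counts against 5.48% higher and 3.34% lower. A single call in a list of few tested genes rests on that gene alone.

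Levels rose or fell in steps along the score. Bcas1 went from 119 CPM in low-score cells to 210.0, 528 and 1340 CPM in the next 3 bands, and Mag from 0.494 to 1.36, 6.48 and 22.0 CPM. Krt8 fell from 3805 to 2910, 1708 and 532 CPM over the same bands, so cells just under the limit already had part of the profile.

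**Figure D1:**
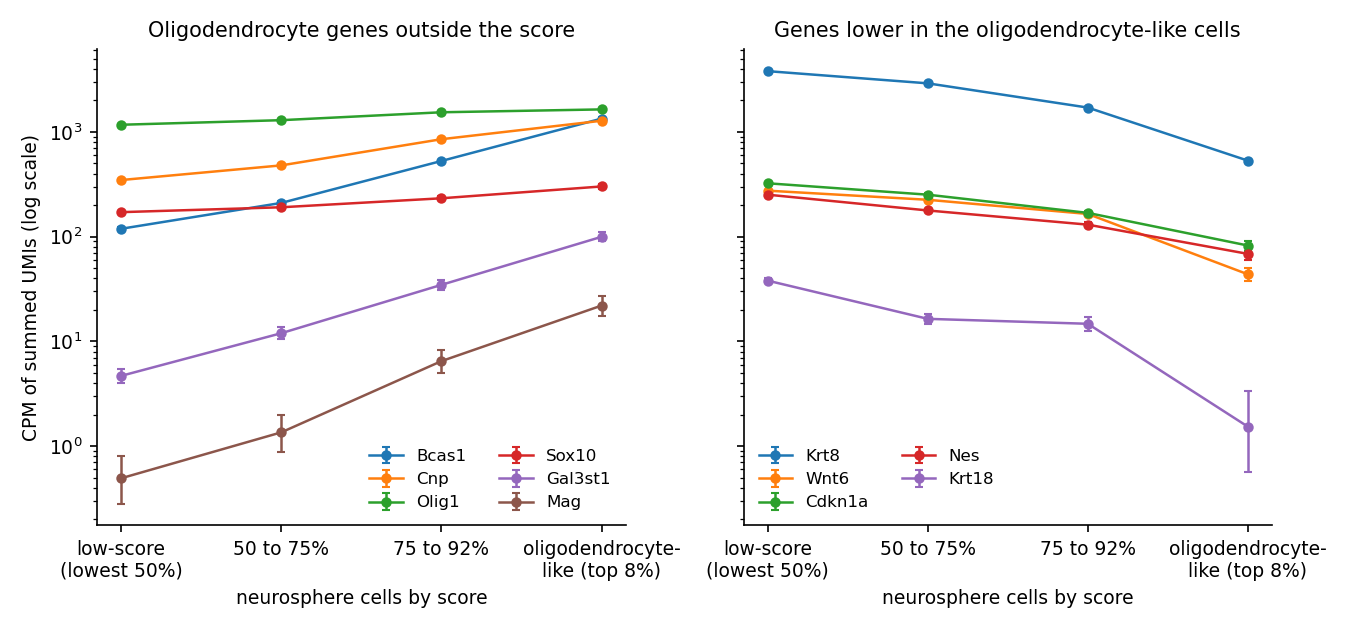
CPM of summed UMIs of genes outside the score in 4 bands of neurosphere cells ordered by score (2138, 1069, 727 and 342 cells), with oligodendrocyte genes on the left and genes lower in oligodendrocyte-like cells on the right. Bars are 95% Poisson intervals, which cover counting error only.

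In the myelin list, of 19 tested genes outside the score, 14 were over 2-fold higher and 1 lower (all tested genes: 5.48% and 3.34%), with a median log2 ratio of 1.53 beside 0.06 for all genes. The Notch list was close to it, and which list had the largest median changed with the cells taken. The higher genes span several steps of myelin making: the sulphotransferase Gal3st1 (4.14, 3.87 to 4.42) acts on myelin lipids, and Mag (3.94, 3.21 to 4.78) holds the myelin sheath to the axon. With Mbp left out of the score the ratios were 2.96 for Gal3st1 and 1.54 for Mag. Mag rested on 86 and 16 UMIs and was seen in 12.6% of the oligodendrocyte-like cells (7.83% thinned), against 0.608% (0.239%) of low-score cells. Mpzl1, an adhesion protein related to myelin protein zero, had a log2 ratio of 3.07. Chosen after their values were seen, Mog on the outer myelin surface (2.50), the galactolipid synthase Ugt8a (2.28) and the cytoskeletal enzyme Cnp (1.88) were also higher. Car2, like Ermn, had no UMI in either group, so genes of full myelination were present in part.

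The lists of earlier stages had smaller medians than the myelin list. The committed precursor list had 4 of 6 tested genes higher, none lower (all tested genes: 5.48% and 3.34%), and a median of 1.196. Its leading gene Bcas1 had a log2 ratio of 3.48 (3.42 to 3.54), and 2.34 with Mbp left out of the score. The calcium channel Itpr2 (2.40), the Wnt effector Tcf7l2 (1.39, and 0.92 with Mbp left out of the score) and the kinase Fyn (1.01, and 0.87 after TMM scaling) followed, while Enpp6 and Bmp4 had no UMI in either group. In the oligodendrocyte precursor list, 4 of 12 tested genes were higher and 0 lower, beside the same shares of all tested genes, and the median was 0.81. Lhfpl3, a precursor membrane protein, led it at 3.13, although its reads may include those of an overlapping gene on the same strand, as may those of Tcf7l2. Pdgfra, the receptor of dividing precursors, stood at 1.26 (0.75 to 1.77) on only 37 and 109 UMIs, and at 0.79 among cells between the depth quartiles (those with UMIs between the quartiles of the oligodendrocyte-like cells).

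The transcription factors of the lineage showed a small median of 0.81, with 4 of 9 tested genes higher and 0 lower, beside 5.48% and 3.34% of all tested genes. Myrf, which switches on myelin genes, had a log2 ratio of 1.77 (1.52 to 2.02, and 0.97 with Mbp left out of the score), Nkx2-2, which times differentiation, 1.53 and Zeb2, a repressor of inhibitory signals, 1.39. Sox10 at 0.81 and Olig1 at 0.49 stayed under 2-fold, and Olig2 at 0.10 was close to the all-gene median.

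**Figure D2:**
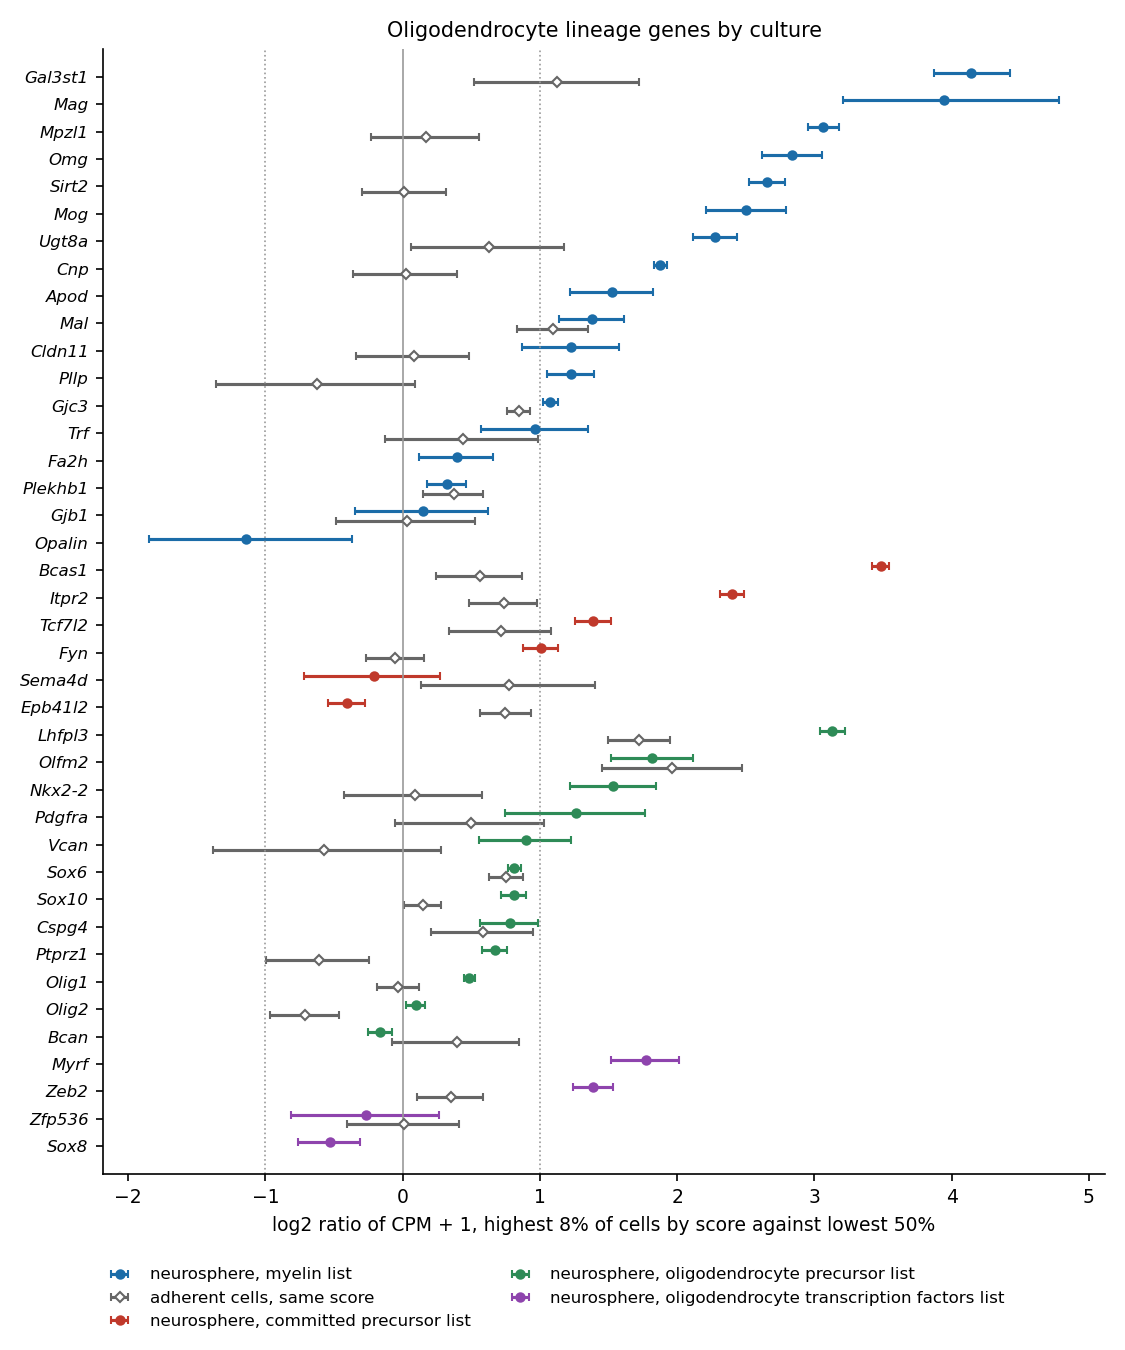
Log2 ratios of CPM + 1 for genes of the myelin, committed precursor, oligodendrocyte precursor and oligodendrocyte transcription factor lists, the highest 8% of cells by score against the lowest 50%, in neurospheres (filled) and in the adherent library (open). Bars are 95% exact conditional intervals for counting error only, a gene without an open symbol had too few adherent UMIs, and dotted lines mark 2-fold.

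Some genes that hold back differentiation were also at higher summed levels. Of 6 tested oligodendrocyte inhibitors 3 were higher and 0 lower (median 1.15), beside 5.48% and 3.34% of all tested genes. The higher genes were the Notch target Hes5 (2.00, 1.78 to 2.21, and 0.58 among cells under the median share of cell cycle UMIs), Id3, which binds and blocks helix-loop-helix factors (1.71), and Hes1 (1.49). Hes5 was found in only 10.5% of the oligodendrocyte-like cells (7.23% thinned), against 3.70% (2.58%) of low-score cells. Id2, of the same family as Id3, had a log2 ratio of −0.92, and the list median was 0.65 among cells under that cycle median. The Notch list had 6 of 9 genes higher, 0 lower (5.48% and 3.34% of all tested genes) and a median of 1.49. It was led by the coactivator Maml2 (2.47), followed by Hes5 (2.00) and the receptors Notch2 (1.88) and Notch1 (1.77). Summed levels do not show whether myelin and Notch genes were high in the same cells.

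The growth factor receptor list had 3 of 8 tested genes higher, beside 5.48% of all tested genes, 0 lower and a median of 0.35. Erbb3, a neuregulin receptor, stood apart at 192.9 CPM against 11.6 CPM (log2 ratio 3.94, 3.76 to 4.12), and Erbb4 at 1.03 (0.48 to 1.58) rested on 29 and 101 UMIs and was 0.73 with Mbp left out of the score. Reads of Erbb4 may also include those of an overlapping gene on the same strand. Egfr, the receptor for the EGF in the medium, had no UMI in either group.

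Among the 15 genes with the largest log2 ratios were several with known places in oligodendrocytes. The kinase Aatk (4.38), the phosphatase Dusp15 (4.10), which acts downstream of Myrf and Sox10, the tubulin Tubb4a (3.66) of myelinating cells and the adhesion protein Lsamp (3.56) belong to them. With Mbp left out of the score the ratios were 2.76 for Aatk, 3.31 for Dusp15, 1.91 for Tubb4a and 2.60 for Lsamp. Others have wider roles: the unnamed transcript Gm4876 (4.62), the Rac regulator Chn2 (4.09), the calcium-binding S100a16 (3.92), the caveolar protein Cav1 (3.75), the cyclic GMP phosphodiesterase Pde9a (3.49) and the homeobox factor Hoxa13 (3.47). All but Lsamp and Tubb4a of these 10 stayed under 100 CPM in the oligodendrocyte-like cells, so their share of the transcriptome is small.

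Epithelial keratins fell most among the lists. Both tested genes were lower, beside 3.34% of all tested genes, with a median of −3.39 (−2.38 with Mbp left out of the score). Krt8, an intermediate filament protein, was 532 CPM against 3805 CPM (log2 ratio −2.84, −2.90 to −2.77) and was found in 41.8% against 82.8% of cells (28.6% and 74.2% thinned). The remaining Krt8 was uneven, since 6 cells held 50% of its 2081 UMIs, and the per-cell median was 0 against 1586 CPM. Its partner Krt18 had 6 UMIs against 1233 (log2 ratio −3.95, and −2.03 with Mbp left out of the score).

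The lowest ratios included secreted signals and muscle proteins, many on few UMIs. The chemokines Ccl2 and Cxcl10, which draw immune cells, had 1 and 2 UMIs against 1124 and 1244, the latter found in only 1.92% and 3.79% of low-score cells. These were 136-fold (24.3 to 5367) and 75.1-fold (20.8 to 621) lower, with intervals that do not cover such clustering of UMIs in few cells, and Cxcl10 lost its difference when Mbp was left out of the score (log2 ratio 0.02). Mucl2, a mucin-like secreted protein, had 1 UMI against 1126, and the milk casein Csn3 had 7 against 1471 (log2 ratio −4.06, and −1.27 with Mbp left out of the score). The troponins Tnnt3 and Tnni2 of fast muscle had 1 UMI each, against 582 and 572. Their log2 ratios of −3.92 and −3.89 were −2.26 and −1.74 with Mbp left out of the score. The natriuretic peptide gene Nppb had 0 against 276 UMIs, at least 11.1-fold lower at a floor of 3 counts. Its UMIs lay in only 11 low-score cells (0.51%), so few cells decide this value and the bound does not cover that. Reln, a guidance protein (−3.34), Phlda2, a growth regulator (−3.20), Tesc, a calcium-binding protein (−2.97), and Ano3, a membrane scramblase (−2.95), were lower as well. Atg9b, an autophagy protein (3 against 917 UMIs), Prss56, a protease (1 against 303), and Artn, a neurotrophic ligand (3 against 414), with Krt18 complete the 15 genes with the smallest log2 ratios. Of these genes, Tesc at 51.0 CPM was the most abundant in low-score cells, so the large ratios belong to minor transcripts.

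The G1/S list had 0 of 41 genes higher and 7 lower (median −0.64), and the G2/M list 0 of 52 higher and 1 lower (median −0.27), beside 3.34% of all tested genes lower. Per cell, the median sum was 1236 against 2779 CPM for G1/S and 2218 against 5905 CPM for G2/M. Both lists together took a median of 0.339% of UMIs in oligodendrocyte-like cells and 1.05% in low-score cells. Of the 342 cells, 108 (31.6%, 26.7 to 36.8) lay above the median of all kept cells, against 50.6% of low-score cells. Ung, which repairs uracil in DNA, had a log2 ratio of −1.63 and the DNA methylation factor Uhrf1 −1.25, which was −0.50 among cells under the median share of cell cycle UMIs. The inhibitor Cdkn1a was not higher, at 82.3 against 323 CPM (log2 ratio −1.96, −2.12 to −1.80). Of the 10 tested cell cycle inhibitors 1 was higher, the cyclin-like Ccng1 (1.31, and 0.99 between the depth quartiles), and 1 lower (median −0.06, and 0.04 with 12% of cells chosen), beside 5.48% and 3.34% of all tested genes.

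The stress lists stand beside 5.48% of all tested genes higher and 3.34% lower. Immediate early genes had 0 of 13 higher and 3 lower (median −0.29), led by the AP-1 factor Fosl1 with 1 UMI against 241 (29.1-fold lower, 5.18 to 1154). Heat shock genes had 0 of 7 higher or lower (median −0.28). Hypoxia genes had 0 of 9 higher and 1 lower, the glucose transporter Slc2a1 (−1.56), with a median of 0.06 equal to that of all genes, and −0.31 among cells under the median share of cell cycle UMIs. In the interferon list 0 of 12 were higher and 1, Cxcl10, was lower (median 0.36). Ifit3b, at 0.97, was at 1.31 with the score taken on 50% of UMIs. Ifit3, at 0.76, was at 1.08 with Mbp left out of the score.

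Lists of other cell types describe what else the score may have gathered. The melanocyte list, of interest because Pmel is a pigment gene, had a median of 0.26. It had 0 of 4 tested genes higher or lower, beside 5.48% and 3.34% of all tested genes. Its member Mitf, at 0.82, was at 1.13 with 5% of cells chosen. Tyr, Tyrp1, Trpm1, Mc1r, Ednrb and Slc45a2 had no UMI in oligodendrocyte-like cells, so Pmel was found without UMIs of tyrosinase (Tyr), which starts pigment synthesis, while Dct, a later enzyme, had 7 UMIs against 5 (1.79 against 0.154 CPM). The Schwann cell list had 1 of 4 higher, Erbb3, and 0 lower, beside 5.48% and 3.34% of all tested genes. Its median of 0.32 ran from −0.14 with all other cells as comparison to 2.15 between the depth quartiles, and per cell the list median was 563 against 273 CPM. The choroid plexus list had no tested gene and summed to 0.767 against 0.802 CPM, and the immune list had none either, at 4.60 against 2.07 CPM. The only tested endothelial gene, Pecam1, rested on 5 UMIs against 114, and its log2 ratio of −0.99 ranged from −1.08 after TMM scaling to 0.38 with Mbp left out of the score.

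The astrocyte list had 3 of 6 genes higher and 0 lower (median 1.06), where 5.48% of all tested genes were higher and 3.34% lower, with the glycolytic enzyme Aldoc at 2.38, the calcium-binding S100b at 1.77 and the glutamate transporter Slc1a3 at 1.22 (0.86 between the depth quartiles). Summed per cell, its median was 805 against 235 CPM, but the median log2 ratio was 0.27 when only cells of the 2 clusters with most oligodendrocyte-like cells were taken. The neural stem cell list had 5 of 9 higher and 2 lower, beside the same 5.48% and 3.34% of all tested genes. Its median was 1.26, and 0.58 among cells under the median share of cell cycle UMIs, yet its per-cell sum was lower, 1769 against 1980 CPM. The fatty acid binding protein Fabp7 was at 1.91 and Notch1 at 1.77, while the filament protein Nes was at −1.86 (−2.04 to −1.69). The neuron list had 1 of 3 higher, the microtubule protein Map2 (1.03, and 0.52 with Mbp left out of the score), and 0 lower, beside the same shares of all tested genes. Per cell this list had a median of 273 against 136 CPM. The neuron median log2 ratio of 0.30 was −0.19 among cells under the median share of cell cycle UMIs.

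The lysophosphatidate list, which holds the receptors and phosphatases for the product of Enpp2, had 1 of 9 genes higher, Plppr1 (1.13, 0.61 to 1.63, and 0.72 after thinning), and 0 lower, beside 5.48% and 3.34% of all tested genes, with a median of −0.30 and a per-cell sum of 485 against 685 CPM. Cholesterol synthesis, which supplies myelin, had 0 of 18 genes higher or lower, beside the same 5.48% and 3.34% of all tested genes. Its median was 0.06 (−0.08 after TMM scaling), with a median per cell of 3877 against 3829 CPM. No enzyme of these 18 passed 2-fold in the main comparison, but at the shares of all genes few of 18 would, so the count says little. Hsd17b7, at 0.87 there, was at 1.11 among cells under the median share of cell cycle UMIs.

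The Wnt list had 2 of 8 genes higher and 2 lower, beside 5.48% and 3.34% of all tested genes, and its median of −0.31 was 0.05 among cells under the median share of cell cycle UMIs. The ligand Wnt6 was 43.7 against 275 CPM (log2 ratio −2.63) and Wnt7b had 2 UMIs against 214 (12.9-fold lower, 3.53 to 107), while the repressor Tcf7l1 was at 1.91. The cartilage list had 1 of 10 higher, the matrix protein Matn1 (1.13, and 0.68 between the depth quartiles), and 1 lower, Comp (−1.63, and −0.95 with Mbp left out of the score). Beside them stand 5.48% and 3.34% of all tested genes, and the list median of 0.54 was 0.19 with Enpp2 left out of the score. Of the purinergic receptors 1 of 4 was higher and 0 lower (median 0.38), beside the same shares of all tested genes. The higher one was the channel P2rx7 at 1.38 (1.00 to 1.75), which was 0.85 with Mbp left out of the score. P2rx4 stood at 0.82, P2ry10 at −0.06 and P2ry1 at −0.43. Matrix metalloproteinases, beside the same shares, had 0 of 4 higher or lower (median 0.22, and −0.04 between the depth quartiles), with the membrane-bound Mmp15 at 0.30 and Mmp16 at 0.14.

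The oligodendrocyte-like cells were also divided by their share of cell cycle UMIs. The 108 cells above the cycle median of kept cells had a median of 14179 UMIs and the other 234 had 8345.5. Bcas1 was 1315 and 1358 CPM in them (log2 ratio −0.05, here of CPM with nothing added), and Cnp (0.01) and Sox10 (0.00), genes picked after their values were seen, were as close, while Ugt8a (0.28) and Myrf (0.44) were higher in the cells above. Lhfpl3 (−0.84, −0.98 to −0.71), Erbb3 (−0.38, −0.60 to −0.16) and Olig1 (−0.30, −0.37 to −0.22) were lower in the cells above. Enpp2 was 75.2 CPM in the cells above and 314 CPM in the others (−2.06, −2.35 to −1.79), Gpr17 differed by −0.87 and Id3 by −1.75. Enpp2 and Gpr17 are part of the score, so their levels within these cells depend on the choice, and the interval of Enpp2 does not cover the concentration of its UMIs in few cells.

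**Figure D3:**
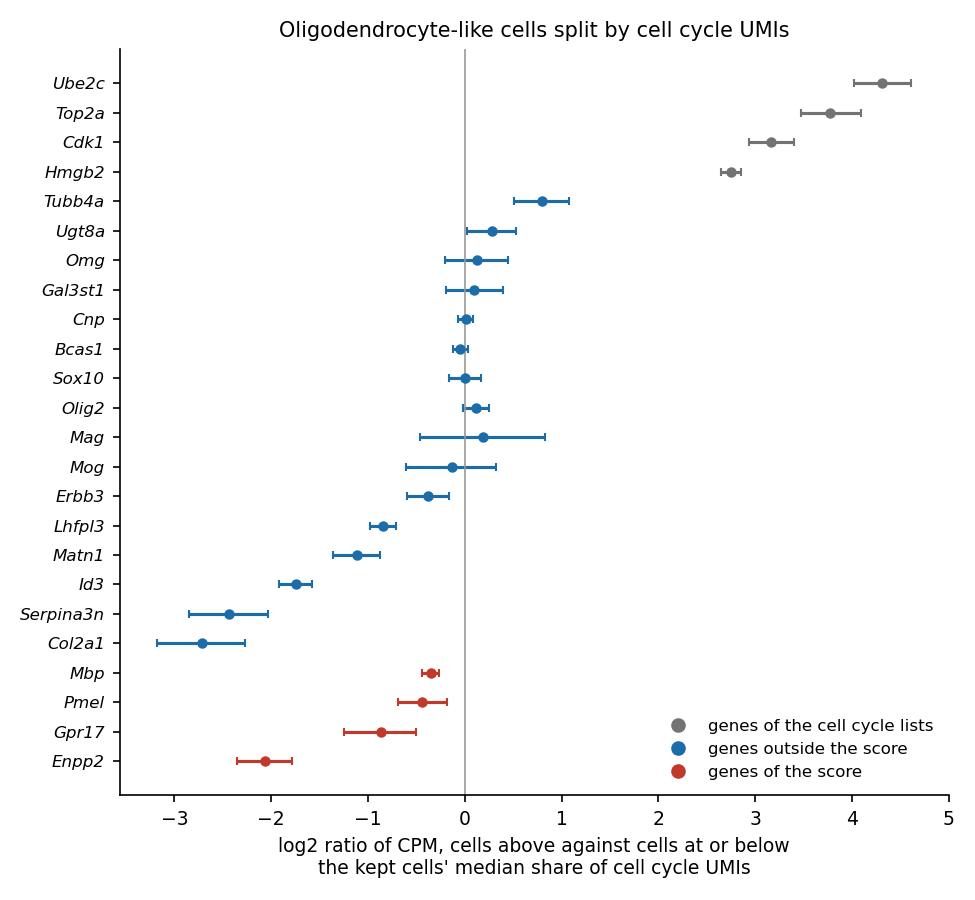
Log2 ratios of CPM in the 342 oligodendrocyte-like cells, split at the kept-cell median of the share of UMIs on the G1/S and G2/M lists (108 cells above, 234 at or below). Bars are 95% exact conditional intervals for counting error only.

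The score genes divided the cells further. The 141 cells with an Enpp2 UMI and the 201 without had like depth (median 9714 and 10302 UMIs). Genes chosen after their values were seen differed between them: Serpina3n, a protease inhibitor (2.71), Selenop, a selenium carrier (2.84), and Col2a1, a cartilage collagen (2.50), were higher with Enpp2. Mog (−1.66), Mag (−1.59), Tubb4a (−1.73) and Krt8 (−2.09) were lower, and Bcas1 differed by −0.35. A few cells weigh on these values: 15 oligodendrocyte-like cells in cluster 4 of the clustering below held 158 Col2a1 and 129 Serpina3n UMIs. All 141 cells with Enpp2 held 374 and 407, and the 201 without held 95 and 89. The myelin list did not move one way, with Mpzl1 at 1.05, Trf at 1.42, Gjc3 at 0.30, Ugt8a at −0.19 and Mal at −0.06. Its members Pllp (−0.96), Omg (−0.60), Cnp (−0.56), Gal3st1 (−0.43) and Sirt2 (−0.38), also chosen after their values were seen, were lower with Enpp2. Enpp2 is part of the score, so cells without it were chosen through the other score genes, with Mbp at 1329 CPM against 1027 CPM in cells with Enpp2, and these contrasts depend on that choice. Pmel was found in 68.8% of the cells with Enpp2 and 50.2% of those without, while Gpr17 was found in 36.9% and 45.8%. Among all kept cells thinned to 5000 UMIs, 24 had both Enpp2 and Gpr17 where the product of their shares gives 13.4, and 73 had both Enpp2 and Pmel where it gives 21.4.

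Higher scores brought more Bcas1 but no more Mag. In 4 groups of oligodendrocyte-like cells from low to high score, Bcas1 was 1006, 1303, 1420 and 1814 CPM, Mag from 17.4 to 29.6 CPM in the first 3 and 14.99 CPM in the last, and Krt8 962, 477, 381 and 131 CPM. The counting intervals of the Mag values overlap.

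Clustering of all kept neurosphere cells gave 10 clusters and placed most oligodendrocyte-like cells in 2. Cluster 6 held 191 of them, 48.5% (43.4 to 53.5) of its 394 cells, and cluster 0 held 101, 16.6% of its 607 cells, together 292 of 342 (85.4%). Only 3 of the 191 in cluster 6 lay above the cycle median, against 95 of the 101 in cluster 0, so the pair divides by cell cycle. With the score genes left out of clustering, the top 2 clusters held 158 and 104 of the cells (76.6%), so the grouping does not rest on those genes alone. Cluster 4 held 15 of the chosen cells with 142 Enpp2 UMIs, no UMI of Mog or Myrf (absence cannot be told at this depth), 352 CPM of Bcas1, 358 CPM of Sox10 and 1760 CPM of Krt8, and cluster 7 held 0 in 371 cells, which allows a share of up to 0.989%.

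**Figure D4:**
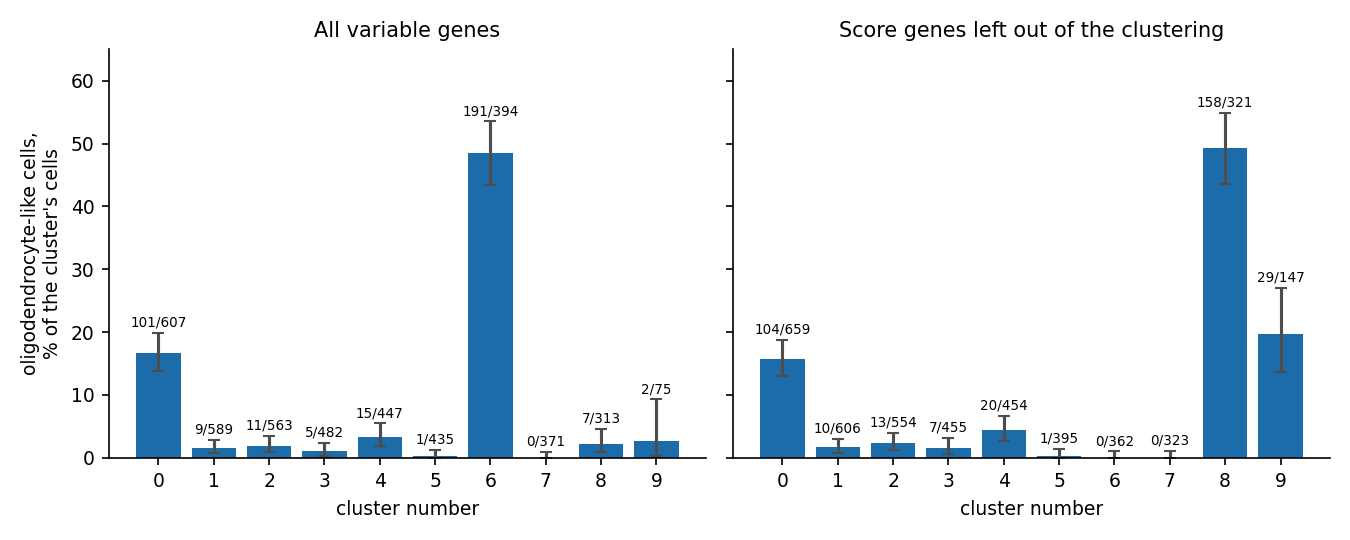
Share of each neurosphere cluster's cells that are oligodendrocyte-like, with the score genes used in clustering and with them left out; cluster numbers of the 2 runs are unrelated. Bars are 95% exact binomial intervals for counting error only.

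Other scores chose mostly other cells. Of 342 cells chosen by the cartilage genes Col2a1, Matn1, Acan and Col9a1, 11 (3.22%, 1.62 to 5.68) were oligodendrocyte-like, and of 342 chosen by Lgals1, S100a4 and Ly6a, 1 was (0.292%), against 8% of kept cells. The score from Hes5 and Fabp7 shared 70 (20.5%, 16.3 to 25.1), above that share.

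The same score in the adherent library chose 404 cells whose profile was shared in part. They had a median of 6881.5 UMIs, against 8479 in low-score adherent cells, so the chosen cells were shallower in both libraries. The G2/M list median was negative in both, at −0.48 in adherent cells and −0.27 in neurospheres. How much of the shared profile goes with depth or cell cycle was not tested. Mbp was found in 71.1% of 5051 kept adherent cells, and at 255 CPM was higher than the 124 CPM of kept neurosphere cells, while Gpr17 had 1 UMI in the adherent library and 904 in the neurosphere library. In the adherent library the score therefore ranks cells mainly by Mbp, whose count does not separate the myelin transcripts from the longer Golli transcripts of that gene. The contrast in the score was weaker here. Of the 2526 low-score adherent cells 1278 held a UMI of the 4 genes, against 61 of 2138 in neurospheres. Mbp itself had a log2 ratio of 4.19 in adherent cells and 9.27 in neurospheres, so the ratios of the 2 libraries come from unlike contrasts. Against the low-score adherent cells Bcas1 had a log2 ratio of 0.56 (0.24 to 0.87), beside 3.48 in neurospheres, and Mag had no UMI in either adherent group. Of the 621 genes higher in neurospheres 454 were tested here, and 59 (12.996%) were higher and 1 lower, where 1.497% of all genes tested in both were higher in the adherent library. Of the 378 lower genes 261 were tested, and 26 were lower and 0 higher, where 0.486% of all genes tested in both were lower in the adherent library. Over 10085 genes tested in both, Pearson's r was 0.448 and Spearman's rho 0.447, across genes, which are not independent replicates. Thus Lhfpl3, Gal3st1, S100b, Fabp7 and Lsamp, chosen after their values were seen, were higher in both libraries. The myelin list median was 0.37 over 13 tested genes in the adherent library and 1.53 over 19 tested genes in neurospheres, from unlike contrasts and gene sets. The difference between cultures was not tested.

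Gene positions in GENCODE M21 (GRCm38) put Enpp2 at chr15:54838901-54952892 on the minus strand and Pmel at chr10:128704195-128720238 on the plus strand. Promoters of 300 bases were searched on both strands for the Sox motif ACAAAG, its variant ACAATG, the Myrf motif CTGGCAC and the E-box CAGCTG bound by Olig factors. Of 8911 promoters of tested genes, 12.8%, 6.73%, 4.70% and 14.5% held them. Among 451 promoters of higher genes the shares were 16.4%, 11.3%, 5.10% and 15.1%, and among 284 of lower genes 15.8%, 6.69%, 5.28% and 23.6%. The ACAATG share was largest among higher genes and the CAGCTG share among lower genes, while the ACAAAG and CTGGCAC shares were close in both. Of 3 promoters listed, the one closest to the annotated start of Mag (RefSeq, GRCm38.p6, chr7:30914873-30915172, minus strand, printed 5' to 3' with motifs in capitals) held ACAAAG on the reverse strand and CTGGCAC, 1 match each.

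Mag promoter: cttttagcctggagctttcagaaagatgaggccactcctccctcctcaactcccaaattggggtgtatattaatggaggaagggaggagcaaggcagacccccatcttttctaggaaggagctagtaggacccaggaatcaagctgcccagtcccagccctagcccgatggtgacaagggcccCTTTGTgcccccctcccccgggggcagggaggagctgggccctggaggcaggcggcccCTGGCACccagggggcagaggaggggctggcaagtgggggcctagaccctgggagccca

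Of 3 promoters listed, the one closest to the annotated start of Gal3st1 (RefSeq, GRCm38.p6, chr11:3983386-3983685, plus strand) held 1 ACAATG. A match describes the sequence and does not show binding.

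Gal3st1 promoter: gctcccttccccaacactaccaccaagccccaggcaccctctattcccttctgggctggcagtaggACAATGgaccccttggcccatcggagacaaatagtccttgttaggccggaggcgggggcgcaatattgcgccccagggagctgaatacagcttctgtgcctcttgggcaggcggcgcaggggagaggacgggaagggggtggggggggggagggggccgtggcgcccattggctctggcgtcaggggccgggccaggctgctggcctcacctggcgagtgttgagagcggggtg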

How the data were processed

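The data are 1 scRNA-Seq library each of adherent and neurosphere GL261 cells (10x 3' v3). The authors deposited raw UMI counts per gene and called cell, made per the labels with Cell Ranger 7.0.1 on mm10. From 32285 genes, 13 mitochondrial and 101 ribosomal genes were removed. Cells with at least 1000 UMIs and 2250 genes (adherent 1250) were kept, 4276 neurosphere and 5051 adherent cells. Summed UMIs were scaled to CPM, and log2 ratios are of CPM + 1. Genes needed at least 100 UMIs over both groups of cells. Intervals are exact Poisson, binomial or conditional intervals (scipy 1.17.1, numpy 2.4.6, pandas 2.3.3, Python 3.11.15, figures with matplotlib 3.10.9), with coverage checked on simulated data. Clustering used Seurat 5.3.0 in R 4.3.3 (2000 variable genes, 18 PCs, resolution 1.0). Cells and the 29 gene lists were chosen with earlier results of these data known. The lists, all given in the report, are named there by cell type or pathway. Values of 1 list gene are not reported here.

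Named genes are the 4 score genes, the 15 largest and 15 smallest log2 ratios, up to 4 genes per list with the largest absolute ratio, list markers with few or no UMIs, the oligodendrocyte markers listed to check the cells' name, and 6 genes the study examined. Others are said to be chosen after their values were seen. No doublet caller was run, and cells over the 95th percentile of UMIs were left out as an alternative. Other alternatives changed the share of cells chosen, the comparison cells, the cell filter and its order, weights, depth, scaling (TMM in edgeR 4.0.16), score genes, UMI minimum, pseudocount and clustering.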

Additional observations from a re-analysis of the deposited data

Results flagged for a closer look

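Some genes differed in opposite directions between the high-score and low-score cells of the 2 cultures, with counting intervals on either side of 0 or calls in opposite directions. The log2 ratios in neurospheres and adherent cells were 2.13 and −1.38 for Dcc, −1.96 and 0.19 for Cdkn1a, −0.95 and 1.15 for Col9a1, −0.92 and 1.03 for Id2, −0.58 and 0.97 for Mmp17, −1.86 and 0.47 for Nes, −3.25 and 0.64 for Nppb, −0.64 and 0.61 for Nr4a1, −2.97 and 0.24 for Tesc, and −1.63 and 0.47 for Ung. The difference between cultures was not tested, and with 1 library per culture it cannot be told apart from a difference between libraries.

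The 675 neurosphere barcodes removed by the cell filter, which no comparison uses, held 185 UMIs of the 4 score genes, 322 CPM (277 to 372), above the limit of 5.22 CPM that a count of 0 allows. Kept cells had 177 CPM. The removed barcodes had a median of 106 UMIs and 87.0% mitochondrial UMIs, and 64 of them held a UMI of the 4 genes. The source of these UMIs was not tested.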

How the results depend on the processing

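Over all alternatives run, the count of genes over 2-fold higher ranged from 282 to 887 (621 as reported) and of lower genes from 111 to 506 (378). The count of higher genes was 371 when cells were thinned to 5000 UMIs, 337 among cells between the quartiles of depth of the oligodendrocyte-like cells, 297 with a minimum of 500 UMIs and 282 with a pseudocount of 10 CPM. The count of lower genes was 246 with Mbp left out of the score, 193 with a minimum of 500 UMIs and 111 with a pseudocount of 10 CPM. A higher minimum tests fewer genes and a larger pseudocount shrinks ratios of low genes by construction; the cause of the other shifts was not tested. Of the 621 higher genes, 331 remained after thinning.

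The myelin median ranged from 1.104, with Mbp left out of the score, to 1.60 over 20 settings of cells and scaling, and the oligodendrocyte precursor median from 0.68 to 0.89. With a minimum of 500 UMIs the myelin median was 2.08, and with a pseudocount of 10 CPM it was 1.06 and the precursor median 0.64. The largest cluster share of the oligodendrocyte-like cells was 46.2% with the score genes left out of clustering, against 55.8%. Of 72 named genes over 2-fold, 70 kept their sign in the 20 settings and 52 stayed beyond 2-fold. Those that did not in some setting are Aurkb, Ccng1, Cdca7, Comp, Cxcl10, Erbb4, Fyn, Hes5, Ier2, Map2, Matn1, Myrf, Nppb, P2rx7, Pdgfra, Plppr1, Rrm2, Slc1a3, Tcf7l2 and Uhrf1. Named genes under 2-fold as reported that passed it in some setting include Hsd17b7, Mitf, Ifit3, Ifit3b, Id2 and Col9a1. Cxcl10 reversed to 0.0234 with Mbp left out of the score, and Nppb had no UMI in either group between the depth quartiles. The cause was not tested. List medians of 8 of 27 lists changed sign in some setting: Schwann cell, neuron, endothelial, cholesterol synthesis, Wnt, cell cycle inhibitors, hypoxia and matrix metalloproteinases.

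With cells filtered before gene removal, 4300 neurosphere cells were kept. The settings between depth quartiles, against cells with no UMI of the score genes, and with only cells of the 2 main clusters were chosen after seeing the data. Depth limits genes with few UMIs, and a difference between cultures rests on 1 library each.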
